A study of Mus musculus with 8 samples.

Results

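Defb3, Defb4 and Defb6 are beta-defensin genes of the mouse, and each was measured by a single probe set on 8 one-colour oligonucleotide arrays of cultured keratinocytes. The arrays compared keratinocytes lacking Nfkbiz with wildtype keratinocytes, and the study's title frames this as a question about the transcriptional program of oncogenic RAS. All cultures came from the C57BL/6 strain, were kept in regular medium without starvation and had been transduced 3 days earlier with v-rasHa, a viral, activated form of Hras. The 4 Nfkbiz KO v-rasHa samples and the 4 wildtype v-rasHa samples are biological replicates according to their titles. No culture without v-rasHa was measured, so both genotypes carry the oncogene. Age, sex, the number of animals and the way Nfkbiz was deleted are not given in the labels.

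The members were taken by symbol: a probe set counted if the platform annotation gave it exactly 1 symbol and that symbol was Defb3, Defb4 or Defb6. This gave 3 of the 19 Defb genes and of the 9294 genes measured, and the other 16 Defb genes serve as the contrast for the background level. The trio was chosen by its differences between Nfkbiz KO and wildtype arrays, which were known beforehand. Those differences are therefore given as a description, with a standard error (SE) and without a test.

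Beta-defensins are small, positively charged, secreted peptides held in shape by disulfide bonds. They damage the membranes of bacteria and fungi, and several of them attract immune cells through the chemokine receptor CCR6. Epithelia make some of them constantly and others only when stimulated by microbes or by cytokines such as interleukin-1, interleukin-17 and interleukin-22, through NF-kB and other transcription factors. Nfkbiz encodes IkB-zeta, a nuclear partner of NF-kB subunits. In human keratinocytes, IkB-zeta is known to take part in the induction of a beta-defensin gene by interleukin-17. Many mouse Defb genes are instead active in the epididymis or testis.

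The table held a log2 signal for 11373 probe sets, with array medians of 4.49 to 4.57 and lower quartiles of 3.33 to 3.39. Arrays of 1 genotype correlated with Pearson r of 0.997 to 0.998 over the probe sets, and arrays of different genotype with 0.994 to 0.996, and no array stood apart or duplicated another. The 7 measured keratinocyte markers had mean signals of 4.69 to 13.4 with a median of 11.6. Krt5, a keratin gene of basal keratinocytes, averaged 13.29 in Nfkbiz KO and 13.42 in wildtype arrays, while Krt15 was near the array medians, with 4.74 in Nfkbiz KO and 4.63 in wildtype arrays. Over all genes, 412 were lower (4.43%) and 415 higher (4.47%) in the Nfkbiz KO arrays at an adjusted p under 0.05 in limma, and the median log2 fold change was -0.01. After each array was centred on its median, 314 were lower and 482 higher, so the share of higher calls was 60.6% in place of 50.2%. Nfkbiz was not analysed here, so the deletion was not checked from these values. In RNA from whole cultures, fewer expressing cells and less RNA per cell cannot be told apart.

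Defb6 had the largest difference of the trio. Its gene product is a beta-defensin known in mice from muscle and from epithelia of the mouth and airways. The log2 signal of Defb6 was 4.45, 4.73, 4.56 and 4.74 in Nfkbiz KO replicates 1 to 4, against 5.53, 5.50, 5.42 and 5.31 in wildtype replicates 1 to 4. All Nfkbiz KO arrays lay below all wildtype arrays, with a gap of 0.57 between the highest Nfkbiz KO and the lowest wildtype value. The means were 4.62 ± 0.14 in Nfkbiz KO and 5.44 ± 0.10 in wildtype arrays (SD, n = 4 each). The log2 fold change was -0.82 ± 0.08 (SE), so the Nfkbiz KO signal was 56.7% of the wildtype signal. The gap was larger than the SD within either genotype.

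Defb4, a beta-defensin gene that is inducible in mouse epithelia, differed by less. Its log2 signal was 4.199, 4.09, 4.27 and 4.35 in Nfkbiz KO replicates 1 to 4, against 4.49, 4.61, 4.68 and 4.81 in wildtype replicates 1 to 4. The groups did not overlap, and 0.15 separated the highest Nfkbiz KO from the lowest wildtype value. The means were 4.23 ± 0.11 in Nfkbiz KO and 4.65 ± 0.13 in wildtype arrays (SD, n = 4 each), a log2 fold change of -0.42 ± 0.08 (SE). The Nfkbiz KO signal was 74.6% of the wildtype signal.

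Defb3, another inducible beta-defensin gene, had the widest spread. Its log2 signal was 3.17, 3.28, 3.44 and 3.67 in Nfkbiz KO replicates 1 to 4, against 3.74, 3.69, 3.81 and 3.84 in wildtype replicates 1 to 4. The groups did not overlap, but Nfkbiz KO replicate 4 came within 0.021 of wildtype replicate 2. The means were 3.39 ± 0.22 in Nfkbiz KO and 3.77 ± 0.07 in wildtype arrays (SD, n = 4 each), a log2 fold change of -0.38 ± 0.10 (SE). The Nfkbiz KO signal was 76.9% of the wildtype signal. Over the 8 runs that each left out 1 array, the log2 fold change of Defb3 lay between -0.47 (without Nfkbiz KO replicate 4) and -0.31 (without Nfkbiz KO replicate 1).

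Ordered from the most negative log2 fold change of the 9294 genes, Defb6 was number 53, Defb4 number 179 and Defb3 number 202. Nfkbiz KO arrays lay below wildtype arrays without overlap for 3 of 3 members and for 741 of all 9294 genes (7.97%). Since this contrast chose the members, nothing is read from that share.

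**Figure D1:**
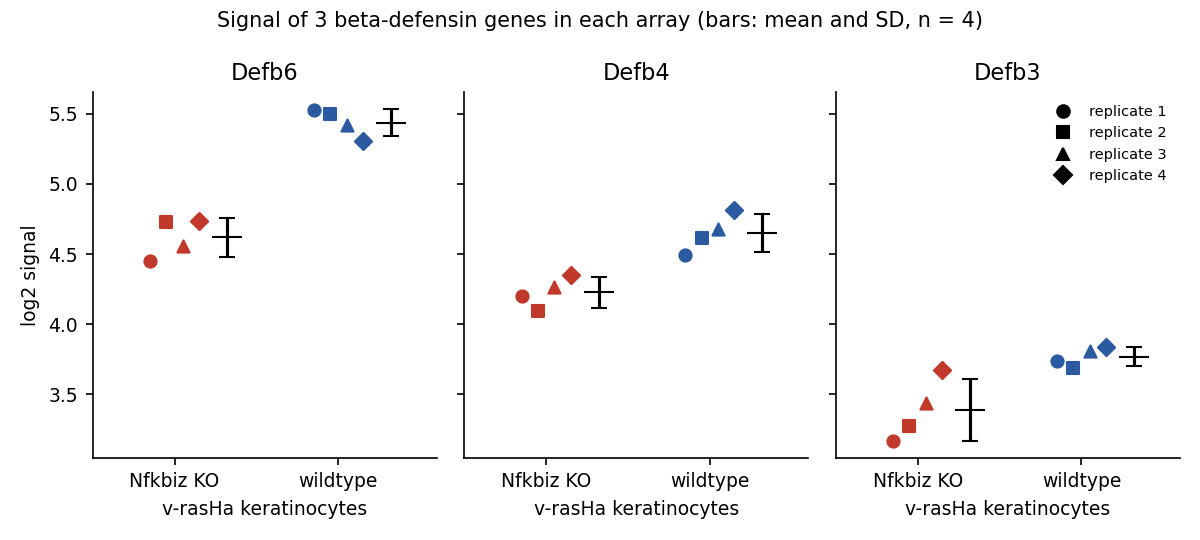
Log2 signal of Defb6, Defb4 and Defb3 (vertical axis) in each Nfkbiz KO and wildtype v-rasHa array, with 1 point per array, a symbol for each replicate number, and bars for the mean and SD of 4 arrays. All Nfkbiz KO points lie below all wildtype points in each panel, by 0.57 for Defb6, 0.15 for Defb4 and 0.021 for Defb3.

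The signals of the trio were in the low to middle range of the arrays. Within an array, Defb6 stood above 44.4% to 49.2% of genes in Nfkbiz KO and above 56.4% to 59.3% in wildtype arrays. Defb4 stood above 38.2% to 42.4% in Nfkbiz KO and 44.7% to 49.99% in wildtype arrays, and Defb3 above 17.8% to 28.6% in Nfkbiz KO and 28.5% to 32.4% in wildtype arrays. Signals of different probe sets depend on their affinity, so these positions describe brightness and do not say which gene is more abundant.

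A list of 15 measured genes that belong to other tissues, such as the albumin gene Alb and the insulin gene Ins2, gave a sense of the dim range. Their mean signals had quartiles of 3.21 and 4.02 and ran from 2.46 to 5.83. None of the 15 was called in limma, beside 8.9% of all genes, and a list this short is not set apart by that. Of these 15, 3 in Nfkbiz KO and 1 in wildtype arrays were brighter than Defb6. For Defb4 it was 3 in both genotypes, and for Defb3 it was 9 in Nfkbiz KO and 6 in wildtype arrays. All 3 members therefore lay inside the range of genes of other tissues in both genotypes, with Defb6 in wildtype arrays above all but 1 of them. No detection calls were used here, so the fold changes describe signals. Whether related Defb transcripts reach each other's probes was not tested.

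The other 16 Defb genes had smaller log2 fold changes. In limma, none was called higher or lower, beside 8.9% called over all genes. Of the 16, 1 had an unadjusted p under 0.05, beside 20.8% of all genes, and counts this small over 16 genes do not set them apart from the rest. Their median log2 fold change was -0.03, against -0.01 over all genes, with a range of -0.19 to 0.04. The groups overlapped for all 16. That 1 gene was Defb10, with 2.91 ± 0.08 in Nfkbiz KO and 3.10 ± 0.08 in wildtype arrays (SD, n = 4 each). Its log2 fold change of -0.19 did not pass in limma (adjusted p = 0.088). Without wildtype replicate 3, its limma adjusted p was 0.0451 and Defb10 counted as lower in Nfkbiz KO.

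The other Defb genes had mean signals of 1.99 to 5.08 in Nfkbiz KO and 2.02 to 5.05 in wildtype arrays, with a median of 3.08 over the 8 arrays. The brightest was Defb21, with 5.08 in Nfkbiz KO and 5.05 in wildtype arrays. Defb21 was brighter than Defb6 in Nfkbiz KO arrays, while no other Defb gene reached Defb6 in wildtype arrays. Defb4 was exceeded by 1 of the 16 in each genotype, and Defb3 by 4 in Nfkbiz KO and 3 in wildtype arrays. The levels of the trio lay within the range of the other Defb genes, apart from Defb6 in wildtype arrays. Defb1 and Defb14, which are also known from epithelia, were not analysed here.

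**Figure D2:**
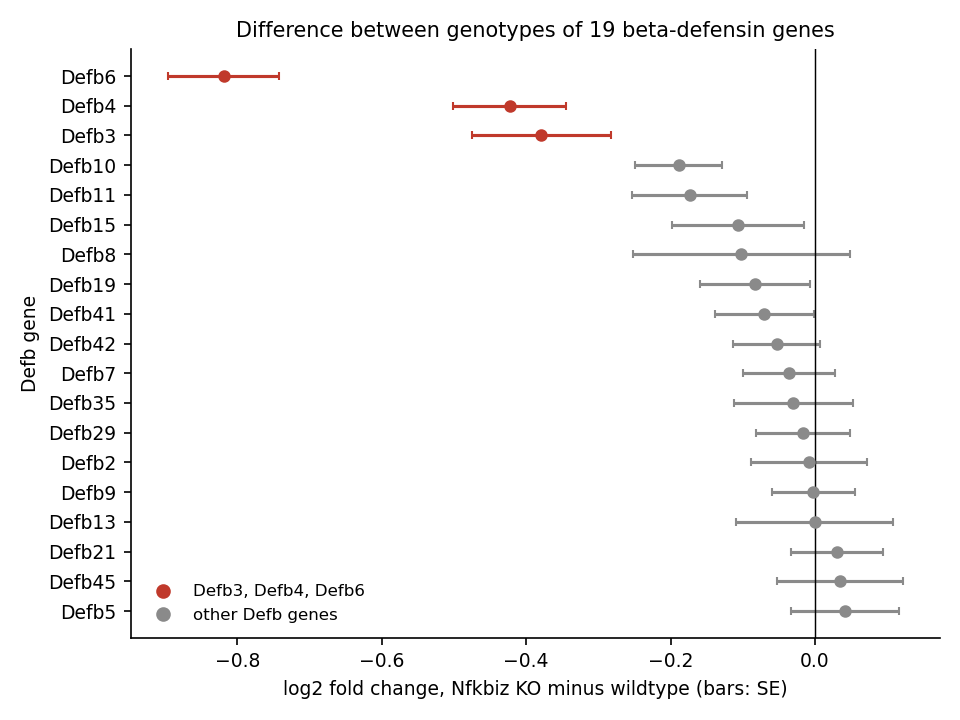
Log2 fold change (horizontal axis, Nfkbiz KO minus wildtype) of 19 Defb genes, with points for the estimate and bars for its SE. Defb6, Defb4 and Defb3 lie at -0.82, -0.42 and -0.38, and the other 16 genes lie between -0.19 and 0.04.

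The trio lies in 1 block of chromosome 8. In the order of measured genes in the GRCm38.p6 annotation, the block runs Defb4, Defb6, Defb5, Defb3, Defb8 and Defb7, without another measured gene between them. Defb5 stands between Defb6 and Defb3, and had 2.67 ± 0.14 in Nfkbiz KO and 2.63 ± 0.08 in wildtype arrays (SD, n = 4 each). Its log2 fold change was 0.04 (limma adjusted p = 0.828). The log2 fold change was -0.10 for Defb8 (limma adjusted p = 0.779) and -0.04 for Defb7 (limma adjusted p = 0.823). These 3 probe sets had means of 1.99 to 3.24 in either genotype, below the lower quartile of the arrays.

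The 5 nearest measured genes on each side that are not Defb genes were Cdc16, AF366264, Fbxo25, Tdrp and Xkr5 before the block and 9530057J20Rik, 2610005L07Rik, Defa31, Defa3 and Defa39 after it. None of the 10 was called in limma, beside 8.9% of all genes, and 1 had an unadjusted p under 0.05, beside 20.8%. Their log2 fold changes ran from -0.07 to 0.26 with a median of 0.03. The highest was that of Defa3, an alpha-defensin gene, with 5.15 in Nfkbiz KO and 4.90 in wildtype arrays and a limma adjusted p of 0.117. Without Nfkbiz KO replicate 1, the log2 fold change of Defa3 was 0.34, and it was called higher (limma adjusted p = 0.0229). Defa genes are close copies of each other, so their probe sets may share targets.

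**Figure D3:**
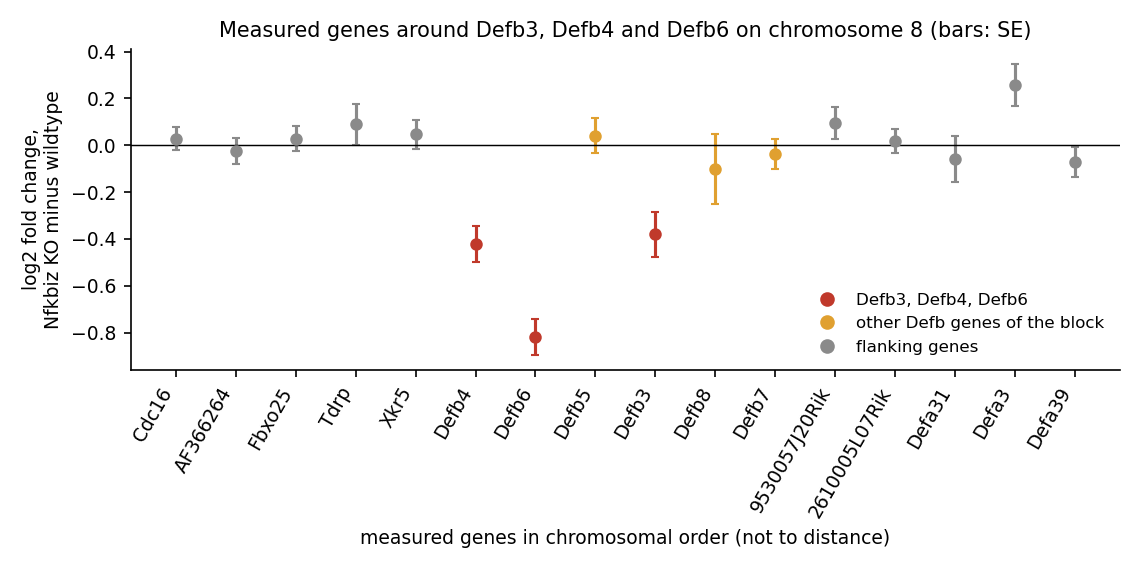
Log2 fold change (vertical axis, Nfkbiz KO minus wildtype, bars for the SE) of 16 measured genes in their order on chromosome 8, with equal spacing and not to distance. Defb4, Defb6 and Defb3 lie at -0.42, -0.82 and -0.38, and Defb5 between them lies at 0.04, while the 10 flanking genes lie between -0.07 and 0.26.

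Promoters are shown for Defb6, Defb3 and Defb5, the neighbour between them, whose dim signal was not called between genotypes. The sequences are the 250 bases before the start of the gene in RefSeq's table for GRCm38.p6, all on the plus strand: chr8:19225228-19225477 for Defb6, chr8:19293111-19293360 for Defb3 and chr8:19247342-19247591 for Defb5. Capitals mark a match to the NF-kB consensus, the octamer ATTTGCAT that POU factors bind, and TATATAA, which resembles a TATA box.
Defb6: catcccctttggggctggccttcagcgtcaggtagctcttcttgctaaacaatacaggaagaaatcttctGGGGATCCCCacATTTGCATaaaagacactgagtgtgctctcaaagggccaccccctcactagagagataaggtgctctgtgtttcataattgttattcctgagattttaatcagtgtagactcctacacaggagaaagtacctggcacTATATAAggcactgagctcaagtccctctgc
Defb3: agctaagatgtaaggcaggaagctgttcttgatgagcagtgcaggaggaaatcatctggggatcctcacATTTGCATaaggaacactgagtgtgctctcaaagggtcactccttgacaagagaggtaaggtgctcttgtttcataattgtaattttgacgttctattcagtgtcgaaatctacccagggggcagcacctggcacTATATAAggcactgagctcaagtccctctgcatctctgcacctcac
Defb5: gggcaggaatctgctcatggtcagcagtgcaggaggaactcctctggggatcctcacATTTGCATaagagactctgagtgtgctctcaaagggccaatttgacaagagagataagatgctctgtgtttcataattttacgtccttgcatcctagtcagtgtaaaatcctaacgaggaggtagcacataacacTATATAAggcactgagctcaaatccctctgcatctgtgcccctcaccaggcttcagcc

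These promoters were closely related. Of the 19 measured Defb genes, 15 matched the promoter table by gene ID, with 16 sequences, since Defb21 has 2. Defb4 is not among the 15, and its promoter was not analysed here. Global alignment of the whole 300 bases, from 250 before to 50 after the start, gave 77.5% identical columns between Defb6 and Defb3, 79.1% between Defb5 and Defb3, and 69.3% between Defb6 and Defb5. The closest promoter to that of Defb3 was that of Defb8, with 87.9%. Over the 10 pairs among Defb3, Defb5, Defb6, Defb7 and Defb8, identity was 69.3% to 87.9% with a median of 76.9%. The 110 other pairs of these 16 sequences, the pair of Defb21 promoters included, had 45.3% to 72.0% with a median of 50.1%. Defb8 and Defb5, whose promoters are the closest to that of Defb3, were not called between genotypes. Both had mean signals below the lower quartile of the arrays, where a fall would be hard to see. Nothing is therefore read from this on the promoters.

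Motifs were searched on both strands in the same 300 bases. The NF-kB consensus had 1 match, in the promoter of Defb6, and none in those of the other 14 matched Defb genes, while 8.49% of the 32544 promoters in the table hold one. It begins at position -180 from the start of Defb6 and reads the same on both strands. At the aligned place, Defb3, Defb5 and Defb8 each differ from Defb6 by C9T, where positions are counted from 1 at the 5′ end of the 10-base match. Printed with 7 bases on each side, with the 10 aligned bases in capitals, the places read as follows.
Defb6: atcttctGGGGATCCCCacatttg
Defb3: atcatctGGGGATCCTCacatttg
Defb5: ctcctctGGGGATCCTCacatttg
Defb8: atcatctGGGGATCCTCacagttg

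The octamer ATTTGCAT begins shortly after that place, at -168 in Defb6, -181 in Defb3 and -193 in Defb5, and was found in 4 of the 15 Defb genes, also Defb9, against 1.75% of all promoters. TATATAA was found in 5 of the 15, Defb3, Defb5, Defb6, Defb7 and Defb8, against 3.22% of all promoters. Both motifs were added after the sequences had been seen. The AP-1 site TGANTCA matched 1 of the 15 (Defb11), the STAT site TTCNNNGAA matched 2, and TATAAA matched 2 (Defb7 and Defb15), against 7.79%, 8.33% and 13.6% of all promoters. The C/EBP pattern TTNNGNAA, which overlaps the octamer in Defb6, Defb3 and Defb5, matched 11 of the 15, including Defb3, Defb5, Defb6, Defb7 and Defb8, against 40.7% of all promoters. A match describes letters in this window and says nothing on binding.

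Within a genotype, the members did not vary together as 1 group. Over the 8 deviations from the genotype means, Defb3 and Defb4 had Pearson r = 0.66 and Spearman rho = 0.76, and r = 0.82 without the 2 arrays farthest from the median of Defb3. Nfkbiz KO replicate 4 was the highest of its genotype for both, and so was wildtype replicate 4. Defb4 and Defb6 had r = -0.41 and rho = -0.31, and r = -0.01 without the 2 arrays farthest from the median of Defb4. In wildtype arrays, the order of Defb6 was exactly the reverse of that of Defb4: replicate 1 was highest for Defb6 and lowest for Defb4, and replicate 4 the other way round. Defb3 and Defb6 had r = 0.33 and rho = 0.19, and r = -0.92 without the 2 arrays farthest from the median of Defb3, so that relation rests on those arrays. These coefficients describe 8 arrays whose deviations sum to 0 within each genotype, in dim signals, and carry no test.

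**Figure D4:**
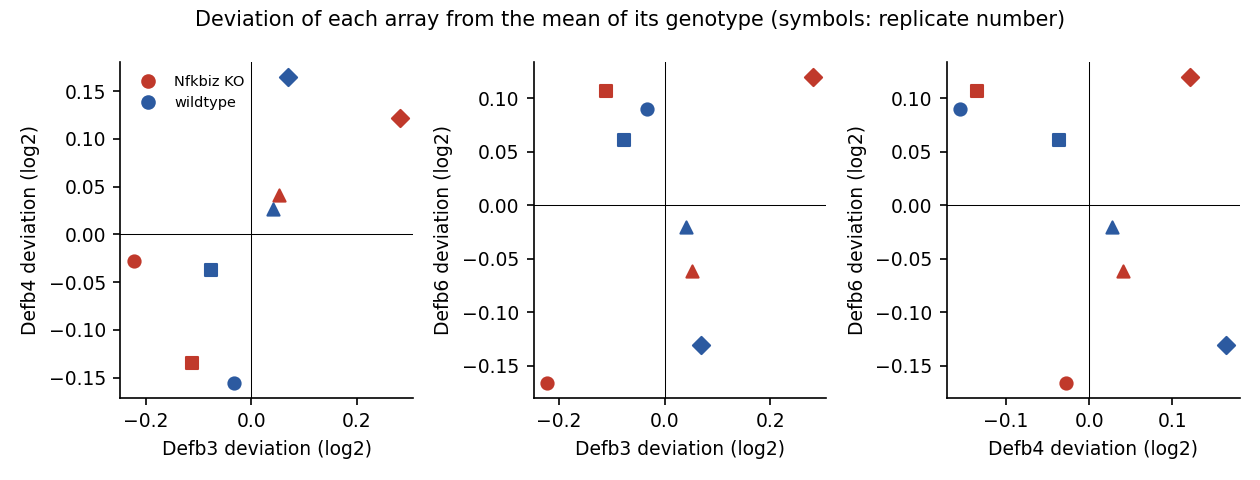
Deviation of each array from the mean of its genotype (log2), for Defb4 against Defb3, Defb6 against Defb3 and Defb6 against Defb4, with a colour for the genotype and a symbol for the replicate number. Defb3 and Defb4 deviate in the same direction in all 8 arrays, and Defb4 and Defb6 run in opposite order over the 4 wildtype arrays.

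Over the 8 values, the genes most like the mean of the standardised trio were Slit3, Dpt, Sash1, Hs3st1 and Abhd17c, with Pearson r of 0.98, 0.98, 0.98, 0.97 and 0.97. Slit3 encodes a secreted guidance ligand and Dpt the matrix protein dermatopontin. Their values share the difference between genotypes with the trio: Slit3 had a log2 fold change of -0.75 ± 0.09 (SE) and Dpt of -0.85 ± 0.07. Over the deviations from genotype means, the most alike were Ptpn3, A230072C01Rik, Hspb6, Cfap65 and Scrg1, with r from 0.96 to 0.98. None of these 5 was called in limma, although Hspb6 was called higher in 3 of the 16 alternatives and A230072C01Rik lower in 1. None was among the 5 of the first comparison. Both orders are descriptions over 8 arrays and refer to the mean of the trio, not to each member. The highest of 9294 genes can reach such r by chance alone with so few arrays.

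Other genes for antimicrobial proteins of the epidermis were measured in the same arrays. Of 24 measured members of a list of 37 symbols, 9 fell, 2 rose and 13 were not called in limma, beside 4.43% lower and 4.47% higher over all genes. The median log2 fold change was -0.03, close to -0.01 over all genes. Lcn2, which encodes lipocalin-2, an iron-withholding protein, had 3.52, 3.10, 3.17 and 2.94 in Nfkbiz KO replicates 1 to 4, against 7.01, 6.48, 6.77 and 6.70 in wildtype replicates 1 to 4. The groups were far apart, with a log2 fold change of -3.56 ± 0.13 (SE). The log2 fold change was -1.14 ± 0.12 for Ltf, the gene of the iron-binding protein lactoferrin, -1.13 ± 0.06 for Chil1, a chitinase-like gene, and -1.03 ± 0.05 for S100a8, a calprotectin subunit gene. Camp, the gene of the peptide cathelicidin, which is chosen here after its values were seen, had 5.48 in Nfkbiz KO and 5.58 in wildtype arrays (limma adjusted p = 0.34). The 2 that rose, named after their values were seen, were Pglyrp2, a peptidoglycan recognition protein gene, by 0.38 and Wfdc2, a gene of the whey acidic protein family, by 0.35. They became 1 with array weights, and without Nfkbiz KO replicate 1, 3 or 4 or wildtype replicate 2, 3 or 4.

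Several cytokines known to induce beta-defensins were lower. Of 12 measured members of 20, 6 fell in limma, Tnf rose by 0.27 and 5 were not called. The shares over all genes were 4.43% lower and 4.47% higher. In the runs that each left out 1 array, the count of 6 became 4 or 5. It was 5 after median centring, with repeated quantile normalization, with an intensity trend and with a replicate block. The median log2 fold change was -0.17. Il1f6 encodes IL-36 alpha, an interleukin-1 relative made by epithelia, and had 5.53, 5.87, 5.54 and 4.84 in Nfkbiz KO replicates 1 to 4, against 8.4, 8.53, 8.67 and 8.58 in wildtype replicates 1 to 4, a log2 fold change of -3.11 ± 0.17 (SE). The log2 fold change was -1.01 ± 0.06 for Il24, a cytokine gene of the interleukin-20 family, and -0.90 ± 0.06 for Il1a, the gene of interleukin-1 alpha. Il1b, the gene of interleukin-1 beta, named after its values were seen, was not called. It had 5.22 in Nfkbiz KO and 5.36 in wildtype arrays (limma adjusted p = 0.226). Il1f8, the gene of IL-36 beta, fell by 0.54 ± 0.12, and its limma adjusted p was 0.0557 to 0.0628 without Nfkbiz KO replicate 1 or 3 or wildtype replicate 2 or 3. Il17a, the gene of the best known inducer, stood at 4.46 in Nfkbiz KO and 4.43 in wildtype arrays, near the array medians, with a limma adjusted p of 0.931, and was chosen after its values were seen.

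Among receptors and adaptors that receive such signals, 3 of 14 measured members of 38 fell in limma and 11 were not called. All genes together had 4.43% lower and 4.47% higher. The median log2 fold change of the list was -0.09. Il22ra1, the gene of a subunit of the interleukin-22 receptor, had 5.11, 5.26, 5.15 and 5.34 in Nfkbiz KO replicates 1 to 4, against 5.76, 5.86, 5.84 and 5.82 in wildtype replicates 1 to 4. The groups did not overlap, and the log2 fold change was -0.60 ± 0.06 (SE; limma adjusted p = 8.60e-05). Traf3ip2, the gene of the adaptor Act1 of interleukin-17 receptors, had 8.58, 8.57, 8.54 and 8.50 in Nfkbiz KO replicates 1 to 4, against 8.88, 8.85, 8.93 and 8.83 in wildtype replicates 1 to 4. Its groups did not overlap either, with a log2 fold change of -0.32 ± 0.05 (limma adjusted p = 0.00141). Tnfrsf1a, the gene of a TNF receptor, fell by 0.23 ± 0.06, but lost its call in 8 of 16 alternatives, with a limma adjusted p of 0.0645 to 0.0841. The count of 3 became 5 with an intensity trend, with repeated quantile normalization and with the dimmest 25% of genes left out.

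Among NF-kB subunits and their regulators, 4 of 8 measured members of 22 rose in limma, 1 fell and 3 were not called. Beside this, 4.47% of all genes were higher and 4.43% lower. The median log2 fold change was 0.17. Relb, an NF-kB subunit gene, had 7.24, 7.32, 7.43 and 7.28 in Nfkbiz KO replicates 1 to 4, against 6.60, 6.56, 6.60 and 6.97 in wildtype replicates 1 to 4, a rise of 0.64 ± 0.09 (SE). Nfkbid, a nuclear relative of Nfkbiz, rose by 0.46 ± 0.09, Tnip1, an NF-kB inhibitor gene, by 0.24 ± 0.05, and the subunit gene Rela, named after its values were seen, by 0.23 ± 0.05. The kinase gene Ikbke fell by 0.25 ± 0.06. Without Nfkbiz KO replicate 1 or wildtype replicate 2, 2 members rose in place of 4, and the limma adjusted p of Tnip1 was 0.0501 and 0.0512. Without Nfkbiz KO replicate 2, that of Ikbke was 0.053.

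Among other transcription factors linked to defensin genes or epidermal barrier genes, 4 of 10 measured members of 26 fell in limma, 1 rose and 5 were not called. Beside these counts, 4.43% of all genes were lower and 4.47% higher. The median log2 fold change was -0.12. The log2 fold change was -0.54 ± 0.06 (SE) for Fos, an AP-1 subunit gene, and -0.50 ± 0.06 and -0.45 ± 0.05 for Grhl1 and Grhl3, the genes of grainyhead-like factors of the epidermis. Cebpa, a C/EBP factor gene, fell by 0.43 ± 0.06, and is named because of its value. Atf3, a stress-induced factor gene, rose by 0.66 ± 0.07. Of 4 measured genes of EGF receptor ligands and receptors, Epgn, the epigen gene, fell by 0.37 ± 0.07 and 3 did not pass. Of 4 measured receptors reported for beta-defensins, none was called in limma and none had an unadjusted p under 0.05. Over all genes, these shares were 8.9% and 20.8%, from which 4 genes are not set apart. The median signal of the 4 receptors was 3.61, inside the range of genes of other tissues, so differences would be hard to see. Among them, Ccr6 had 4.43 in Nfkbiz KO and 4.56 in wildtype arrays, with a log2 fold change of -0.13 ± 0.10.

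**Figure D5:**
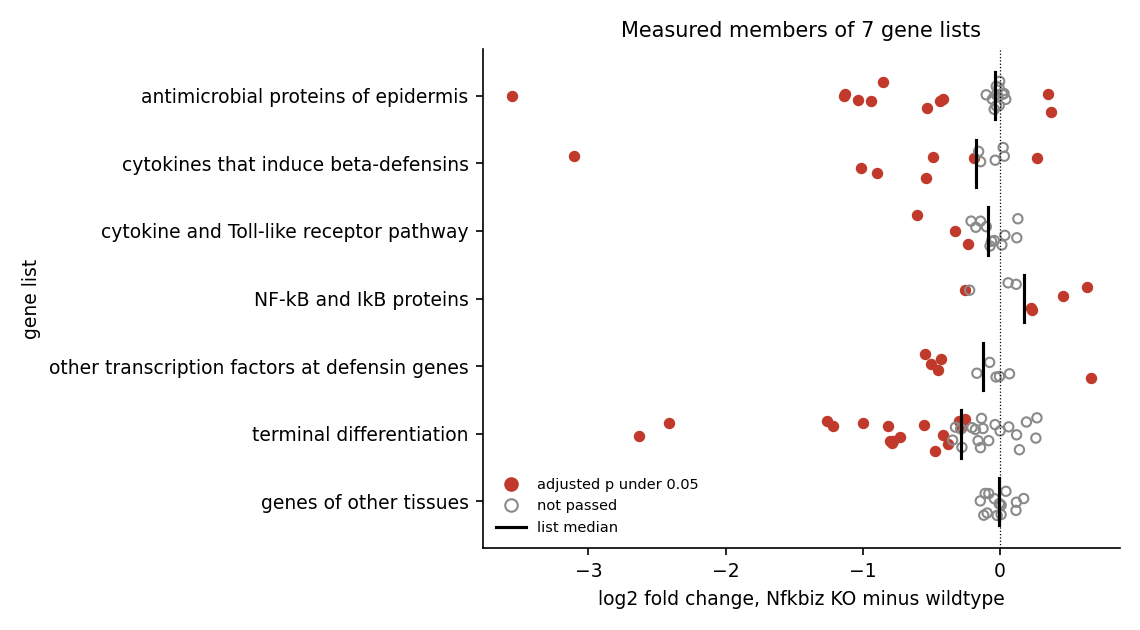
Log2 fold change (horizontal axis, Nfkbiz KO minus wildtype) of the measured members of 7 gene lists, with filled points for an adjusted p under 0.05, open points for the rest and a line for each list's median. Medians run from -0.28 in terminal differentiation to 0.17 in NF-kB and IkB proteins, and the 15 genes of other tissues lie close to 0.

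Beta-defensins are made mainly in the upper layers of the epidermis, and genes of terminal differentiation were lower in the same arrays. In limma, 17 of 36 measured members of 56 fell and 19 were not called, beside 4.43% lower over all genes. The median log2 fold change was -0.28. For Sprr2f, Sprr2d, Sprr2i and Lce3a, which encode parts of the cornified envelope, the log2 fold changes were -2.63 ± 0.23, -2.41 ± 0.10, -1.26 ± 0.12 and -1.21 ± 0.12 (SE). Krt1, an early spinous keratin gene chosen after its values were seen, had 6.61 in both genotypes. The summed signal of the list ran from 30658 to 37206 in Nfkbiz KO and from 42333 to 49854 in wildtype arrays, in linear units. Over the 8 deviations from genotype means, the mean of the list and that of the trio had r = 0.68. By the same measure, r with the trio was -0.70 for Lcn2 and -0.70 for Il1f6. It was 0.36 for S100a8, 0.43 for S100a9 and 0.55 for Ccl20. These coefficients use the mean of 3 members that did not vary together, with r = -0.41 between Defb4 and Defb6. They need not hold for Defb6. The part of differentiation in the difference of the trio was not tested.

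Markers of other cell types were counted in the same way, beside 4.43% lower and 4.47% higher over all genes. A count of 1 called in a short list does not set that list apart from these shares. Of 10 measured fibroblast markers of 17 listed, 7 fell in limma, 1 rose and 2 were not called. Their median log2 fold change was -0.49, and their summed signal was 1667 to 1797 in Nfkbiz KO and 1957 to 2062 in wildtype arrays. S100a4, named after its values were seen, was the brightest and makes up most of these linear sums. It had 10.01 in Nfkbiz KO and 9.95 in wildtype arrays (limma adjusted p = 0.545). The log2 fold change was -1.02 ± 0.06 (SE) for Twist2, a mesenchymal factor gene, -0.97 ± 0.08 for Dcn, the decorin gene, -0.85 ± 0.07 for Dpt and 1.47 ± 0.09 for Postn, the periostin gene. Of 15 measured leukocyte markers of 26, Tyrobp fell by 0.25 ± 0.07 and 14 did not pass, with summed signals of 347 to 361 in Nfkbiz KO and 369 to 403 in wildtype arrays. The median signal of these markers was 4.38, inside the range of genes of other tissues (2.46 to 5.83). Their sums therefore do not show that leukocytes were present. The limma adjusted p of Tyrobp was 0.0551 to 0.0925 in 10 of the 16 alternatives. Of 4 measured melanocyte markers of 11, Pmel fell by 0.28 ± 0.06 and 3 did not pass, with sums of 2226 to 2740 in Nfkbiz KO and 2872 to 2992 in wildtype arrays. Of 6 endothelial markers, none was called in limma and 1, Pecam1, had an unadjusted p under 0.05. The median signal of these 6 was 3.98, inside the range of genes of other tissues too. Of 7 measured keratinocyte markers of 13, Col17a1 fell by 0.31 ± 0.07 and 6 did not pass, with sums of 26852 to 28468 in Nfkbiz KO and 28265 to 29263 in wildtype arrays. The lowest value in the table was 1.57, and genes of other tissues gave signals too. A signal alone therefore does not show that a cell type was present. Over the deviations from genotype means, the mean of the trio had r = 0.13 with the fibroblast, 0.47 with the leukocyte and -0.79 with the melanocyte markers. With the keratinocyte markers, r was -0.18, and these coefficients need not hold for each member. The part of these cells in the difference of the trio was not tested.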

How the data were processed

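Gene expression in 8 cultures was measured on one-colour arrays with biotin-labelled total RNA, extracted with Trizol and a Qiagen column, per the labels' protocols. The table the authors deposited holds log2 values of 11373 probe sets on each array, from 1.57 to 13.9. The log2 scale was inferred from this range. How the values were summarised and normalized is not given in the sources used here. Scan dates and batches are not given either.

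Probe sets were named through the platform annotation: 9374 had 1 symbol, 479 several and 1520 none. A gene was represented by its brightest probe set with 1 symbol, which gave 9294 genes, of which 9201 matched GRCm38.p6 by Entrez identifier. A probe set naming Defb42 together with another gene was left out.

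The limma functions lmFit and eBayes (limma 3.58.1, R 4.3.3) were run over all 9294 genes without covariates, with Benjamini-Hochberg adjustment and a threshold of 0.05. Genes that passed are called, and only they are said to have risen or fallen. Data were simulated in 20 runs with 9294 genes, of which 200 were changed. The noise was independent between genes, with the SDs shuffled over genes. There, 43.2%, 93.6%, 99.8% and 100% of changes of 1.2, 1.5, 2 and 3-fold were recovered, and 4.65% of calls were false. In the measured arrays 827 genes were called, and errors shared by genes were not simulated, so these shares need not hold there. A limma p-value weighs the difference between genotypes against the spread between replicates, moderated over all genes. The number of arrays limits the precision. Since the number of animals is not given, it is not known whether that spread is one between animals. Promoters were aligned with Biopython 1.88.

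The members, gene lists and tests were chosen with earlier results of these data known. Named genes are the trio, in each list the called members of largest change, at most 4 (or the one of smallest p), the 5 nearest measured genes on each side of the block, the 5 most alike genes by either measure, and Lcn2, S100a8, S100a9, Il1f6 and Ccl20, of which S100a9 had a log2 fold change of -0.85 and Ccl20 of -1.91. Other genes named are said to be chosen after their values were seen. Lists share few genes: Lyz2 is in the antimicrobial and leukocyte lists, and Tlr1 and Tlr2 are in both receptor lists. Alternatives were repeated quantile normalization, median centring, dropping the dimmest 25% of genes, averaging probe sets, all probe sets, an intensity trend, array weights, a replicate block and leaving out each array.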

Additional observations from a re-analysis of the deposited data

Results flagged for a closer look

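In 3 of the 38 groups of 4 arrays tested over the 19 Defb genes, 1 array stood far from the others, and about 1 in 20 such groups would do so by chance. None of the 3 concerns Defb3, Defb4 or Defb6. Defb10 was 2.98 in wildtype replicate 3, while the nearest other wildtype array had 3.13 and the highest 3.16. Defb19 was 2.25 in Nfkbiz KO replicate 1, while the nearest other Nfkbiz KO array had 2.51 and the highest 2.55. Defb42 was 3.25 in wildtype replicate 1, while the nearest other wildtype array had 3.16 and the lowest 3.14. These are dim probe sets, and the cause was not tested.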

How the results depend on the processing

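The log2 fold changes of Defb3, Defb4 and Defb6 kept their sign and moved by less than the SD pooled over both genotypes (0.162, 0.122 and 0.12) in all 16 alternatives. For most alternatives that limit could not be passed. Averaging probe sets, all probe sets, the intensity trend, dropping the dimmest genes and the replicate block leave these fold changes as they are. Leaving out 1 of 4 arrays cannot move a group mean that far. Without 1 array each, they ran from -0.47 to -0.31 for Defb3, -0.47 to -0.37 for Defb4 and -0.86 to -0.76 for Defb6. The replicate block gave -0.38, -0.42 and -0.82, the same as without it, with SEs of 0.07, 0.06 and 0.08 in place of 0.10, 0.08 and 0.08. Taken over all genes, arrays of the same number did not deviate together (correlations of -0.05 to 0.09). Defb3 and Defb4, however, were below the genotype mean in replicates 1 and 2 and above it in 3 and 4, in both genotypes. Defb6 did not follow that order. Whether arrays of the same number share more than the number is not given in the labels. Over all genes, 288 to 586 were called higher and 305 to 548 lower. None of the other Defb genes was called apart from 1 lower in the runs without 1 array (0 to 1), and of the flanking genes 0 to 1 was called higher there. Among lists, genes called lower became 5 in place of 3 for receptors and adaptors (intensity trend, quantile normalization, dimmest genes left out), 2 in place of 1 for NF-kB proteins (trend, quantile) and 3 in place of 1 for melanocyte markers (trend). Keratinocyte markers gave 2 lower and 1 higher with the trend and 0 lower with the replicate block, and leukocyte markers 0 lower after centring or quantile normalization. Antimicrobial genes called higher became 1 in place of 2 with array weights. Without 1 array each, the ranges were 1 to 2 for antimicrobial genes higher, 2 to 4 higher and 0 to 1 lower for NF-kB proteins, 0 to 1 higher for terminal differentiation and 0 to 2 lower for leukocyte markers. The Defb genes with each motif were equally many with only the 250 bases before the start. Of 893 values of single named genes under the alternatives, 859 stayed on their side of the threshold, 26 lost a call, 8 gained one and 0 changed direction with a call. The causes were not tested. Signals near background limit what can be seen of Defb3 and of most other Defb genes. Defb4 and Defb6 also lay inside the range of genes of other tissues.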
